A study of Mus musculus with 6 samples.

Results

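The 10 genes described here encode enzymes that hydroxylate collagen chains or that crosslink collagen and elastin. They are the 5 members of the lysyl oxidase family (Lox, Loxl1, Loxl2, Loxl3, Loxl4), the 3 procollagen lysyl hydroxylases (Plod1, Plod2, Plod3) and the 2 main catalytic alpha subunits of procollagen prolyl 4-hydroxylase (P4ha1, P4ha2). They were taken by symbol from a deposited table of 28154 genes, and all 10 were found there once and passed the filter on low counts. The table holds RNA sequencing of 6 libraries of 4T1, a mouse mammary carcinoma cell line. The libraries fall into 3 from cells given corticosterone, the main glucocorticoid of rodents, and 3 from control cells of the same line. The sources used here give no dose, length of treatment or vehicle, and do not say whether replicates are separate cultures. The p-values therefore cover only the spread among these 6 libraries, which may be technical.

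Collagen chains are hydroxylated in the endoplasmic reticulum before they fold. Prolyl 4-hydroxylase makes the hydroxyproline that keeps the triple helix stable at body temperature, and lysyl hydroxylases make the hydroxylysine that carries sugars and strengthens crosslinks. Both use iron, oxygen, 2-oxoglutarate and ascorbate. Lysyl oxidases are copper enzymes that act outside the cell and turn lysine and hydroxylysine into aldehydes, from which the crosslinks form. In mammary tumours this crosslinking is known for stiffening the matrix, and Lox, Plod2, P4ha1 and P4ha2 are known targets of the hypoxia-inducible factor.

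Lox rose with corticosterone, 1.42-fold, and was the 1 member of 10 that changed at an adjusted p under 0.05 (edgeR's quasi-likelihood test, Benjamini-Hochberg adjusted over 17283 genes). Over all tested genes 2.82% changed, 1.35% higher and 1.46% lower with corticosterone. Loxl4, the most abundant lysyl oxidase transcript of these cells, had a fold change of 1.4 and did not pass, and 1 of its 3 corticosterone libraries stood close to the controls. The groups did not overlap for 4 members (Lox, Loxl4, Plod1 and P4ha2), all with higher levels in the corticosterone libraries, where 22.2% of all tested genes had groups that did not overlap and 10.6% had them with corticosterone higher. At an unadjusted p under 0.05 there were 4 members, the same 4, against 17% of tested genes. The other 6 members had overlapping groups. The median log2 fold change was 0.14 over the 10 members and 0 over all tested genes.

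Library totals ran from 62175495 to 66249288 counts, which makes a floor of 3 counts 0.0459 to 0.0477 CPM (counts relative to library size, scaled by TMM, a trimmed mean of log ratios between libraries). Among the treated libraries, corticosterone replicate 2 stood apart. On the first principal component of log2 CPM, with 31.3% of the variance, it lay at 3.38, against 24.6 and 33.6 for corticosterone replicates 1 and 3 and -25.5 to -15.5 for the controls. Without it, 20.5% of tested genes changed and 10.5% were higher, so results that turn on it are given both ways. The 6 epithelial markers (Epcam, Cdh1, Krt8, Krt18, Krt7, Krt19) summed to 1419.9 to 1679 FPKM (fragments per kilobase of exon and per library depth) in the corticosterone libraries and 1526 to 1591 FPKM in the controls. Summed levels of the 6 fibroblast markers were 2.77 to 3.27 FPKM with corticosterone and 2.77 to 2.97 FPKM in controls. Of these, Pdgfra had 1.81 to 2.21 FPKM with corticosterone and 1.88 to 1.93 FPKM in controls. Pdgfrb, Dcn, Thy1 and Fap were detected at lower levels in every library, and Lum was at 0 in 5 of the 6 libraries. The 4 leukocyte markers summed to 2.55 to 2.98 FPKM with corticosterone and 2.38 to 2.88 FPKM in controls, and the 4 endothelial markers to 0.0983 to 0.123 FPKM with corticosterone and 0.204 to 0.286 FPKM in controls, a difference at very low levels whose part in the results was not tested. In bulk RNA a change in the share of cells that express a gene and a change in RNA per cell cannot be told apart.

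On the FPKM scale the members ran from 0.242 to 36.0. In the corticosterone libraries the order of mean levels was Loxl4 (36.0 FPKM), Plod3 (32.5), P4ha1 (28.4), Plod2 (18.1), Loxl3 (5.97), Lox (4.78), P4ha2 (2.66), Plod1 (2.23), Loxl1 (0.642) and Loxl2 (0.305). In controls it was Plod3 (31.6 FPKM), P4ha1 (28.7), Loxl4 (25.7), Plod2 (17.0), Loxl3 (6.57), Lox (3.34), P4ha2 (2.26), Plod1 (1.93), Loxl1 (0.631) and Loxl2 (0.242). By the deposited means Loxl4 thus stood first in the treated libraries and behind Plod3 and P4ha1 in the controls. Its range with corticosterone (28.3 to 40.6 FPKM) overlapped those of Plod3 (30.1 to 35.3 FPKM) and P4ha1 (28.1 to 28.6 FPKM). In corticosterone replicate 2 Loxl4 (28.3 FPKM) was below both Plod3 (35.3 FPKM) and P4ha1 (28.4 FPKM), as in the controls. Apart from Loxl4 and Plod3, no neighbours in either order had overlapping ranges. The deposited FPKM follow the summed length of all annotated exons, which is 2.09 times the longest protein-coding transcript for Plod1 and 2.76 times for P4ha2, and at most 1.47 times for the other members. Rescaled to that transcript, a choice made after seeing the data, Plod1 had 4.65 FPKM in corticosterone and 4.03 FPKM in control libraries, and P4ha2 had 7.33 and 6.23 FPKM in corticosterone and control libraries. On that scale P4ha2 stood above both Lox (4.82 and 3.37 FPKM) and, with corticosterone, Loxl3 (6.71 FPKM), and Plod3 stood above Loxl4 in both groups (44.8 against 40.6 FPKM with corticosterone and 43.5 against 29.0 FPKM in controls). The first place of Loxl4 by mean level in the treated libraries and the order in the middle thus depend on the length used. Loxl1 (0.642 and 0.631 FPKM with corticosterone and in controls) and Loxl2 (0.31 and 0.246 FPKM) stayed lowest after rescaling.

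**Figure D1:**
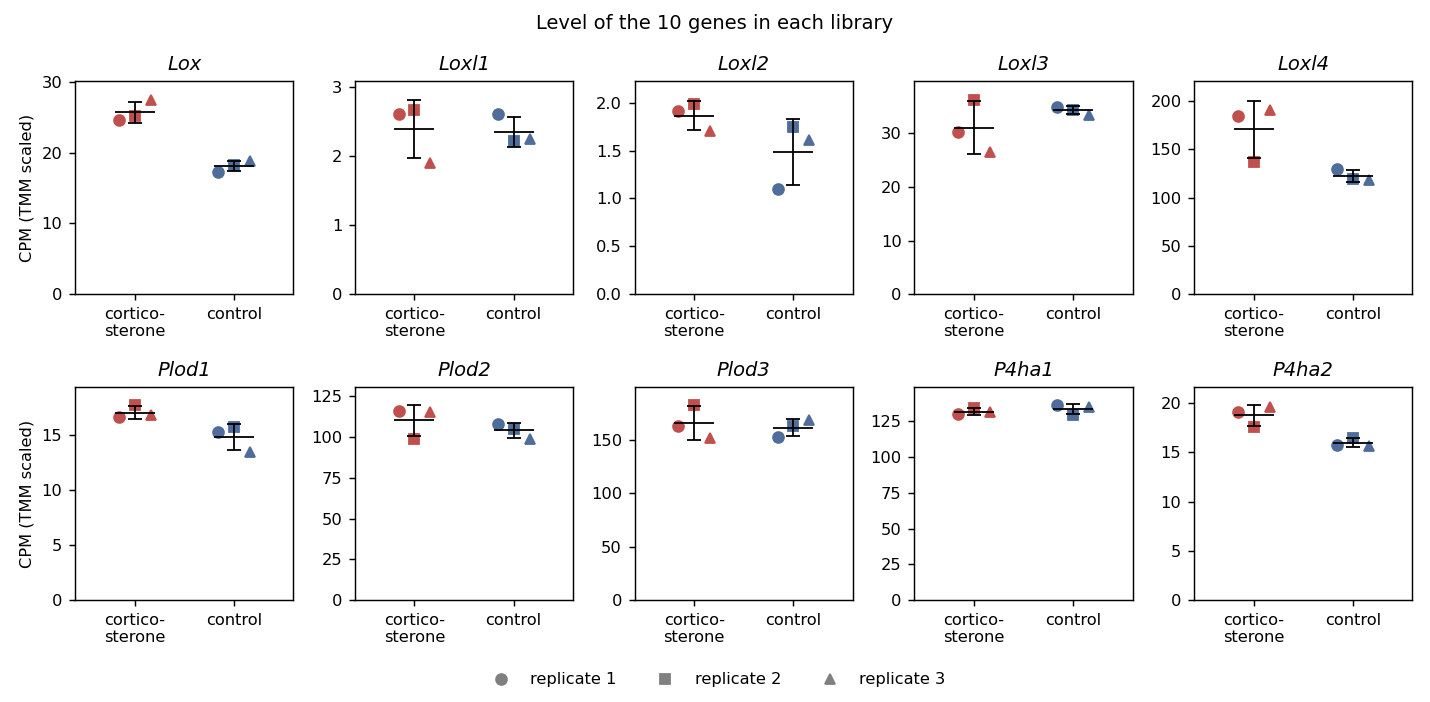
Level of each of the 10 genes in TMM-scaled CPM (vertical axes from 0, with a scale per gene), in 3 corticosterone and 3 control libraries, with replicate numbers as symbols and mean ± SD as bars. Lox lies at 24.6 to 27.4 CPM with corticosterone, above 17.3 to 18.8 CPM in controls, while for Loxl4 corticosterone replicate 2 (137 CPM) sits near the controls.

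Lox, the founding lysyl oxidase, is secreted as a proenzyme and crosslinks fibrillar collagen and elastin. Its gene lies on chromosome 18 (52516067 to 52529867, minus strand, GRCm38). It had 24.6, 25.2 and 27.4 CPM in corticosterone replicates 1, 2 and 3, against 17.3, 18.2 and 18.8 CPM in control replicates 1, 2 and 3. All 3 treated libraries were above all 3 controls, and corticosterone replicate 2 stood among the treated ones. It lay at 92.0% of the distance from the control mean to the mean of replicates 1 and 3 on the log2 scale. The median was 89.3% over all changed genes, Lox among them. Those genes were called with this library in the fit, so the choice favours genes where it follows the other treated libraries. The means were 25.8 ± 1.49 CPM with corticosterone and 18.1 ± 0.746 CPM in controls (SD, n = 3 each), a log2 fold change of 0.51 (SE 0.0781, 95% interval 0.33 to 0.69; edgeR, adjusted p = 0.0144). The call was lost without any single library except corticosterone replicate 2, with log2 fold changes of 0.47 to 0.54 and an adjusted p up to 0.107 (edgeR, without control replicate 2). Fewer than 1% of its exon bases (0.628%) are shared with a gene on the opposite strand.

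Loxl4 belongs to the lysyl oxidases that carry scavenger receptor domains before the catalytic domain. Its gene lies on chromosome 19 (42593982 to 42612813, minus strand). It had 184, 137 and 191 CPM in corticosterone replicates 1, 2 and 3, against 129.6, 119 and 118 CPM in control replicates 1, 2 and 3. The groups did not overlap, but corticosterone replicate 2 was only just above control replicate 1 and lay at 26.4% of the distance from the control mean to the other treated libraries. The means were 171 ± 29.5 CPM with corticosterone and 122 ± 6.36 CPM in controls (SD, n = 3 each), a log2 fold change of 0.48 (SE 0.117, 95% interval 0.21 to 0.75; edgeR, adjusted p = 0.0764). Without corticosterone replicate 2 it was 0.62 and passed (edgeR, adjusted p = 0.000242), and DESeq2 over all 6 libraries called it as well (adjusted p = 0.00103), while limma on log2(FPKM + 1) did not (adjusted p = 0.109).

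The 250 bases before the annotated start of Loxl4 (chr19:42612807-42613056, minus strand, RefSeq, GRCm38.p6) are shown because Loxl4 gives most of the lysyl oxidase transcripts and its groups did not overlap. Capitals mark the motifs found among 7 searched on both strands: GGGCGG (GC box), the core promoter box TATAAA, the sequence ACGTG (the core bound by hypoxia-inducible factors), the palindromic full site of the glucocorticoid receptor, its core TGTTCT, the AP-1 site TGANTCA and the TEAD site GGAATG. The RefSeq table matched 5 of the 10 members (Plod1, Plod3, P4ha1, P4ha2 and Loxl4). Lox, the member that changed, and Loxl1, Loxl2, Loxl3 and Plod2 had no window and were not searched.
Loxl4: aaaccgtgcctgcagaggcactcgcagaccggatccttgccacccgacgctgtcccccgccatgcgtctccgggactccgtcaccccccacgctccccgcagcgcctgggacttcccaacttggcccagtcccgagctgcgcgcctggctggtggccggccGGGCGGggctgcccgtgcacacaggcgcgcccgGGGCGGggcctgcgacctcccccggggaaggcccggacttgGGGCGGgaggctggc
It holds 3 GC boxes, at -89, -56 and -15 from the start, and no match to the other 6 motifs. A GC box is found in 32.7% of 32851 promoter windows of this length, and 4 of the 5 matched members have one. The window has 76.0% G and C, against a median of 52.4% over all windows. Neither glucocorticoid receptor motif was found in any of the 5 matched windows, and 0.387% of all windows hold the full site and 16.1% the core.

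Loxl3, another member with scavenger receptor domains, is encoded on chromosome 6 (83034173 to 83052562, plus strand). It had 30.3, 36.3 and 26.6 CPM in corticosterone replicates 1, 2 and 3, against 35.0, 34.3 and 33.5 CPM in control replicates 1, 2 and 3. Corticosterone replicates 1 and 3 were below all controls and replicate 2 above them, so the groups overlapped, and the log2 fold change of -0.14 did not pass (95% interval -0.39 to 0.11; edgeR, adjusted p = 0.567). Without corticosterone replicate 2 it was -0.27 and passed (edgeR, adjusted p = 0.0337). Loxl3 shares 11.6% of its exon bases with Htra2 on the opposite strand, which is the more abundant of the pair (mean of 6460 counts against 2110 counts for Loxl3) and did not pass at a log2 fold change of 0.11 (edgeR, adjusted p = 0.499). The sources used here do not say whether counting used strand, so the counts of Loxl3 are uncertain.

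Loxl1, which crosslinks elastin, and Loxl2, which acts on collagen IV of basement membranes, were at the low end. Loxl1 (chromosome 9, 58287738 to 58313186, minus strand) had 164, 174 and 125 counts in corticosterone replicates 1, 2 and 3, against 166, 145 and 147 counts in control replicates 1, 2 and 3. The groups overlapped (log2 fold change 0.02, 95% interval -0.40 to 0.44; edgeR, adjusted p = 0.969). Loxl2 (chromosome 14, 69609068 to 69695834, plus strand) had 120, 130 and 111 counts in corticosterone replicates 1, 2 and 3, against 70, 114 and 105 counts in control replicates 1, 2 and 3. Control replicate 1 was low, control replicate 2 stood within the treated range, and the log2 fold change of 0.33 did not pass (95% interval -0.17 to 0.83; edgeR, adjusted p = 0.496). The interval of Loxl1 runs from a fold of 0.758 to 1.36. It ends below the 1.42-fold of Lox but overlaps the interval of Lox (1.26 to 1.61), and the genes were not tested against each other. The interval of Loxl2 runs from 0.888 to 1.77 and holds both no change and the fold of Lox. Loxl2 shares 5.57% of its exon bases with a gene on the opposite strand.

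Summed over the family, lysyl oxidase transcripts came to 50.6, 40.8 and 51.7 FPKM in corticosterone replicates 1, 2 and 3, against 38.1, 35.8 and 35.4 FPKM in control replicates 1, 2 and 3. All treated libraries were above all controls. Loxl4 made up 77.3%, 69.4% and 78.5% of that sum in corticosterone replicates 1, 2 and 3, against 71.6%, 69.7% and 69.8% in control replicates 1, 2 and 3. Its share was thus higher in corticosterone replicates 1 and 3 and within 1 percentage point of controls 2 and 3 in replicate 2. The share of Loxl3 was 11.6%, 16.8% and 10% in corticosterone replicates 1, 2 and 3, below the 17.7%, 18.4% and 18.1% of control replicates 1, 2 and 3. The share of Lox, 9.09% to 11.3% with corticosterone and 8.41% to 9.74% in controls, overlapped between the groups. These are descriptions, and no test was made of the shares.

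**Figure D2:**
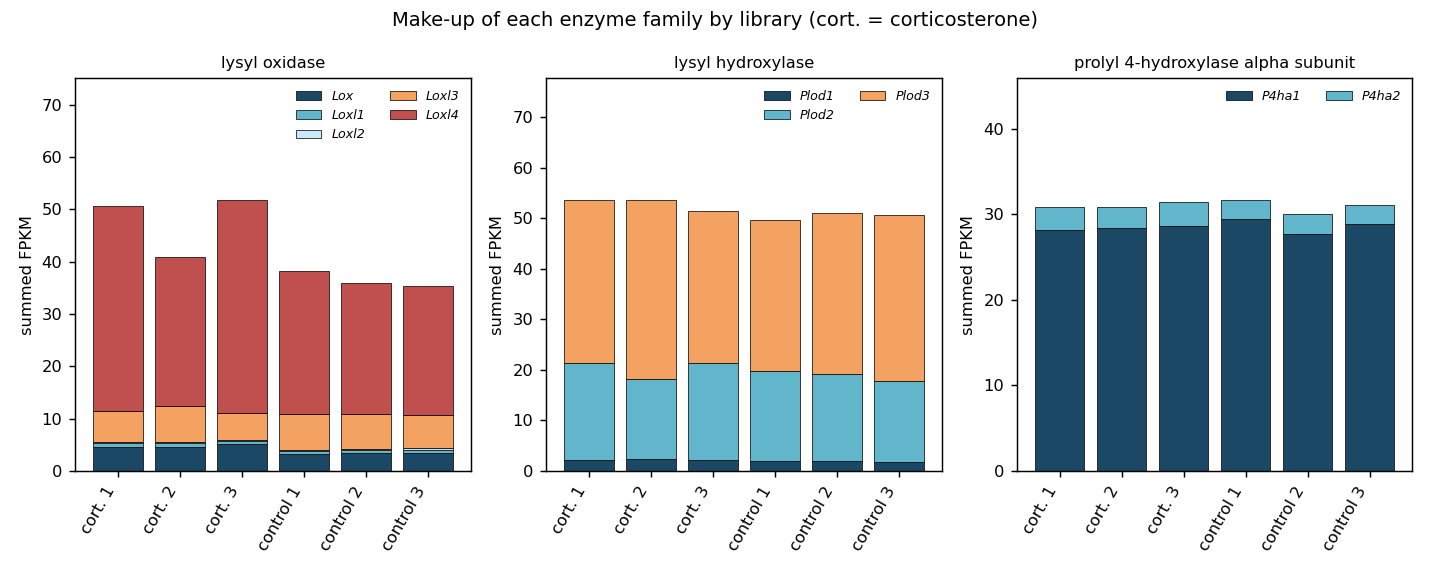
Summed FPKM (vertical axis from 0) of the lysyl oxidases, the lysyl hydroxylases and the prolyl 4-hydroxylase alpha subunits in each of 3 corticosterone (cort.) and 3 control libraries, with a segment per gene. The lysyl oxidase sum is 40.8 to 51.7 FPKM with corticosterone and 35.4 to 38.1 FPKM in controls, with Loxl4 as the main segment. The sums of the other families differ less. For the lysyl hydroxylases they are 51.3 to 53.6 FPKM with corticosterone and 49.8 to 51.1 FPKM in controls, also without overlap.

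Of the 3 lysyl hydroxylases none passed in edgeR, where 1 had an unadjusted p under 0.05, and none was called by DESeq2, by limma or without corticosterone replicate 2 (0 each). Plod3, which also adds glucose to galactosylated hydroxylysine, was the most abundant. Its gene lies on chromosome 5 (136987019 to 136996648, plus strand). It had 163, 183 and 152 CPM in corticosterone replicates 1, 2 and 3, against 153, 163 and 169 CPM in control replicates 1, 2 and 3. The treated libraries held both the highest and the lowest of the 6 values (log2 fold change 0.04, 95% interval -0.14 to 0.21; edgeR, adjusted p = 0.841). Plod3 shares 11.7% of its exon bases with Znhit1 on the opposite strand, which had a mean of 1800.0 counts against 10570 counts for Plod3.

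Plod2, the hydroxylase of collagen telopeptides, is encoded on chromosome 9 (92542223 to 92608428, plus strand). It had 116, 98.8 and 115 CPM in corticosterone replicates 1, 2 and 3, against 108, 105 and 98.5 CPM in control replicates 1, 2 and 3. Corticosterone replicates 1 and 3 were above all controls and replicate 2 was among the lowest (log2 fold change 0.08, 95% interval -0.09 to 0.25; edgeR, adjusted p = 0.636, and 0.15 with an adjusted p of 0.0631 without corticosterone replicate 2). It shares 6.42% of its exon bases with a scarcer gene on the opposite strand. Plod1, which hydroxylates lysines of the triple helix, is encoded on chromosome 4 (147909753 to 147936767, minus strand). It had 16.6, 17.7 and 16.8 CPM in corticosterone replicates 1, 2 and 3, against 15.3, 15.7 and 13.5 CPM in control replicates 1, 2 and 3. The groups did not overlap, with corticosterone replicate 2 the highest of all 6, but the log2 fold change of 0.20 did not pass (95% interval 0.00 to 0.40; edgeR, adjusted p = 0.291). Among the 3 genes, Plod3 gave 58.5% to 65.9% of the summed FPKM in corticosterone libraries and 60.4% to 64.8% in controls. The share of Plod2 was 29.9% to 37.1% with corticosterone and 31.7% to 35.6% in controls. Both shares overlapped between the groups. The small share of Plod1 did not, at 4.1% to 4.34% with corticosterone and 3.46% to 4.02% in controls. These shares were not tested.

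P4ha1 and P4ha2 encode alternative catalytic subunits, each joined in a tetramer to the beta subunit, protein disulfide isomerase (P4hb). Neither passed in edgeR, where 1 had an unadjusted p under 0.05, and DESeq2 and limma called 0. P4ha1 (chromosome 10, 59323296 to 59373304, plus strand) had 129.5, 134 and 131 CPM in corticosterone replicates 1, 2 and 3, against 136, 129 and 135 CPM in control replicates 1, 2 and 3. It had the narrowest interval of the 10 members, with a log2 fold change of -0.02 (95% interval -0.13 to 0.10, a fold of 0.911 to 1.07; edgeR, adjusted p = 0.881). P4ha2 (chromosome 11, 54100095 to 54131662, plus strand) had 19.1, 17.6 and 19.6 CPM in corticosterone replicates 1, 2 and 3, against 15.8, 16.5 and 15.7 CPM in control replicates 1, 2 and 3. The groups did not overlap, and corticosterone replicate 2 was the lowest treated library (log2 fold change 0.23, 95% interval 0.05 to 0.41; edgeR, adjusted p = 0.186). Without that library the log2 fold change was 0.28 and passed (edgeR, adjusted p = 0.0342). P4ha2 was a minor form in every library, with 7.93% to 8.95% of the summed FPKM of both genes with corticosterone and 7.05% to 7.76% in controls. Those shares follow the deposited lengths, and rescaled to the longest protein-coding transcript P4ha2 had 7.33 FPKM beside 28.9 FPKM of P4ha1 with corticosterone and 6.23 FPKM beside 29.2 FPKM in controls.

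The windows before the starts of both genes (RefSeq, GRCm38.p6, plus strand, chr10:59323046-59323295 and chr11:54100674-54100923) are set side by side because P4ha2 had the lower level of these paralogs in every library. The RefSeq start of P4ha2 lies inside the deposited gene, downstream of its start. Capitals mark the motifs named above.
P4ha1: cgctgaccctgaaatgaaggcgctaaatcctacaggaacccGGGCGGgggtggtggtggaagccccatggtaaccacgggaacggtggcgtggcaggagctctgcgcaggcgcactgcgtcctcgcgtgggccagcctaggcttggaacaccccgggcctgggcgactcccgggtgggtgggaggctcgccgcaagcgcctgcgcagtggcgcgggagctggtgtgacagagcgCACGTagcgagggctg
P4ha2: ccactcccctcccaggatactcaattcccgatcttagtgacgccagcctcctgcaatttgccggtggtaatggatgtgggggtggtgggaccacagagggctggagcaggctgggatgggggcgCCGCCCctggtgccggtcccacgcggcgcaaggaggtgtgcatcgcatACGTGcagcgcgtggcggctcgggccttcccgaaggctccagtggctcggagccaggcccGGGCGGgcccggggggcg
Each holds the hypoxia core on 1 strand, at -16 in P4ha1 (printed as its reverse complement CACGT) and at -78 in P4ha2, and such a core is found in 16.6% of all windows. P4ha1 has 1 GC box at -209, and P4ha2 has GC boxes at -126 (printed as the reverse complement CCGCCC) and -18. Plod3 was the third of the 5 matched members with a hypoxia core, at -54. These matches describe the sequence, and binding was not measured.

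**Figure D3:**
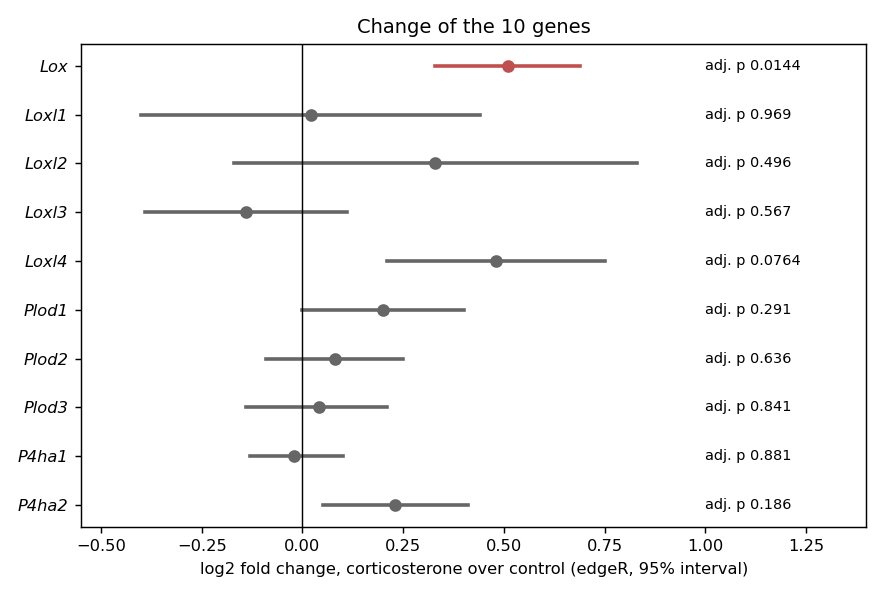
Log2 fold change of the 10 genes, corticosterone over control (horizontal axis), from edgeR with 95% intervals as lines and the Benjamini-Hochberg adjusted p at the right, in red where it is under 0.05. Lox (0.51, 0.33 to 0.69) passes, and Loxl4 and P4ha2 have intervals above 0 but adjusted p of 0.0764 and 0.186.

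The enzymes that work with the members were then read from lists of the pathway. Beside the counts in these lists, 2.82% of all tested genes were called in edgeR and 17% had an unadjusted p under 0.05. The share called was 8.1% of genes with an adjusted p in DESeq2, 4.26% in limma and 20.5% in edgeR without corticosterone replicate 2. Bmp1, a metalloprotease that releases active lysyl oxidase and also removes the C-propeptide of fibrillar procollagens, fell. It had 421, 471 and 417 CPM in corticosterone replicates 1, 2 and 3, against 540.1, 558 and 551 CPM in control replicates 1, 2 and 3. Every treated library was below every control. The log2 fold change was -0.33 (SE 0.0601, 95% interval -0.47 to -0.19; edgeR, adjusted p = 0.0264). Thus Lox and Bmp1 moved in opposite directions in the same libraries. The call of Bmp1 was lost without any single library except corticosterone replicate 2, with an adjusted p up to 0.177 (edgeR, without control replicate 2). It was also lost with no low count filter (adjusted p = 0.0746).

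Bmp1 was the 1 of 11 tested genes of procollagen export and propeptide removal that passed, with a median log2 fold change of 0.15 for that list and 0 for all tested genes. In edgeR 6 of the 11 had an unadjusted p under 0.05, and DESeq2 and limma each called 1, Bmp1. Of the 11 genes edgeR called 5 higher and 2 lower (Bmp1 and Pcolce) when corticosterone replicate 2 was left out, where 10.5% of all tested genes were higher and 10% lower. The 5 were Mia3 and Mia2, receptors that load procollagen at exit sites of the endoplasmic reticulum, the coat subunits Sec23a and Sec24d, and Pcolce2, an enhancer of Bmp1, all named after their values were seen. Mia3, the most abundant of the list after Bmp1, had 132, 114 and 137 CPM in corticosterone replicates 1, 2 and 3, against 120, 116 and 109 CPM in control replicates 1, 2 and 3. The groups overlapped through corticosterone replicate 2, and the log2 fold change over all libraries was 0.15 (edgeR, adjusted p = 0.374).

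None of 13 tested partners of hydroxylation and folding passed in edgeR, where 3 had an unadjusted p under 0.05. DESeq2 called 2, limma 0 and edgeR without corticosterone replicate 2 called 3, and the median log2 fold change in edgeR was -0.11. P4hb had 842, 928 and 844 CPM in corticosterone replicates 1, 2 and 3, against 857, 883 and 917 CPM in control replicates 1, 2 and 3. The groups overlapped (log2 fold change -0.02; edgeR, adjusted p = 0.875). Its FPKM were 8.42 to 9.16 times the sum of P4ha1 and P4ha2 in corticosterone libraries and 8.39 to 9.11 times in controls, so the beta subunit transcript exceeded those of the alpha subunits in all 6. Ppib (cyclophilin B, a prolyl isomerase of the same compartment) averaged 403 ± 46.5 CPM with corticosterone and 385 ± 12.9 CPM in controls (SD, n = 3 each; edgeR, adjusted p = 0.736). A gene on the opposite strand shares 25% of the exon bases of Ppib. Both genes called by DESeq2 were lower, P3h3 and Crtap, parts of prolyl 3-hydroxylase complexes that are named after their values were seen (log2 fold changes of -0.40 and -0.24 in edgeR). Without corticosterone replicate 2 they were joined by Colgalt1, which adds galactose to hydroxylysine and was lower as well.

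Among 14 tested substrates and scaffolds of crosslinking none passed in edgeR, where 2 had an unadjusted p under 0.05. DESeq2 called 2, limma 0 and edgeR without corticosterone replicate 2 called 2. With both of these the calls were Postn (periostin), higher, and Efemp2 (fibulin-4), lower, which were named after their values were seen and had log2 fold changes of 0.30 and -0.31 in edgeR. The most abundant were Fn1 (fibronectin), with 3342 ± 178 CPM with corticosterone and 3631 ± 132 CPM in controls, and Col4a1 of basement membranes, with 426 ± 17.7 CPM with corticosterone and 450.3 ± 25.1 CPM in controls (SD, n = 3 each). Their log2 fold changes were -0.12 and -0.08 (edgeR, adjusted p = 0.304 and 0.554). Col1a1 and Col1a2, the chains of type I collagen, averaged 5.49 and 5.30 FPKM with corticosterone and 4.96 and 5.66 FPKM in controls, and were named after their values were seen. Eln (elastin) was below the filter on low counts, with 4 counts in 1 corticosterone library, 4 in 1 control library and 0 in the other libraries.

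Genes of copper supply gave 0 calls of 7 in edgeR, where 3 had an unadjusted p under 0.05. DESeq2 called 1, limma 1 and edgeR without corticosterone replicate 2 called 4, where that last run called 20.5% of all tested genes. The gene called by DESeq2 and limma was Slc31a2, a copper transporter, with a log2 fold change of -0.45 in edgeR (adjusted p = 0.0595). Without corticosterone replicate 2 it was lower together with Atox1 and Ccs, and Atp7a, the pump that brings copper to secreted enzymes, was higher. Slc31a2 and Atp7a were named after their values were seen. Atox1, a copper chaperone that hands the metal to the secretory pathway, averaged 51.1 FPKM with corticosterone and 61.1 FPKM in controls (log2 fold change -0.26; edgeR, adjusted p = 0.328). Ccs, which loads copper onto superoxide dismutase, had a log2 fold change of -0.23 (edgeR, adjusted p = 0.266).

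Because several members are hypoxia targets, 15 tested genes known to respond to hypoxia were set beside them. Ndrg1, a stress-responsive gene of that list, rose. It had 788, 809 and 747 CPM in corticosterone replicates 1, 2 and 3, against 578, 547 and 539.7 CPM in control replicates 1, 2 and 3 (log2 fold change 0.49, SE 0.0538; edgeR, adjusted p = 0.00359), and the call held without each library in turn. The other 14 did not pass, and the median of the list was 0.07. In edgeR 6 of the 15 had an unadjusted p under 0.05. DESeq2 called 4 higher (Ndrg1, Vegfa, Ero1l and Ddit4) and 1 lower (Car9). With limma 2 were higher (Ndrg1 and Ddit4) and 1 was lower (Car9). Ndrg1 shares 6.35% of its exon bases with a gene on the opposite strand. The glycolytic enzymes Ldha and Pgk1, the most abundant of the list, had log2 fold changes of -0.11 and 0.01 (edgeR, adjusted p = 0.458 and 0.926). Of these genes named after their values were seen, Vegfa (0.33), Ero1l (0.29) and Ddit4 (0.22) had higher levels in all treated libraries. Car9 (-0.44) had lower levels in all treated libraries. None of these passed (edgeR, adjusted p = 0.0635 for Vegfa, 0.132 for Ero1l, 0.0629 for Ddit4 and 0.0549 for Car9). Without corticosterone replicate 2, 6 genes of the list were higher and 2 lower, where 10.5% of all tested genes were higher and 10% lower.

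None of 9 tested genes of cofactor supply and oxygen sensing passed in edgeR, where 1 had an unadjusted p under 0.05. DESeq2 called 0, limma 0 and edgeR without corticosterone replicate 2 called 3 (Slc23a2, an ascorbate transporter, and Hif1a higher, and Egln2 lower, named after their values were seen). Slc2a1, a glucose transporter that also carries oxidised ascorbate, had a log2 fold change of 0.05, and Egln1, the main prolyl hydroxylase of the hypoxia-inducible factor, one of -0.02 (edgeR, adjusted p = 0.623 and 0.883).

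**Figure D4:**
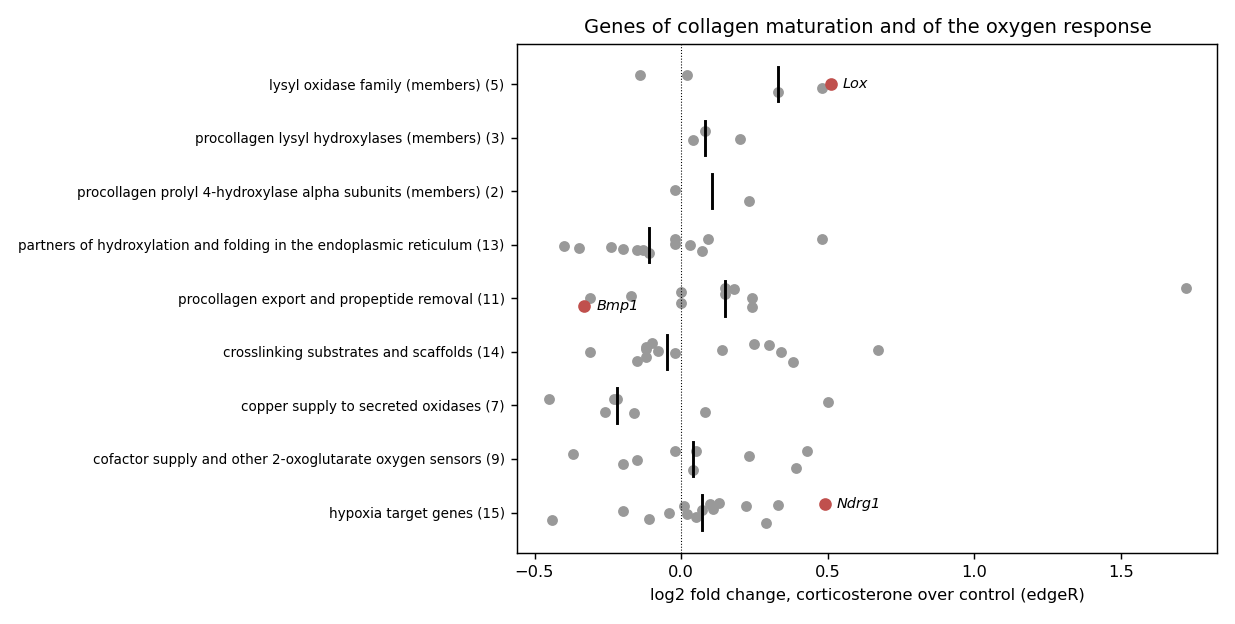
Log2 fold change of each tested gene, corticosterone over control (horizontal axis, edgeR), in the 3 groups of members and 6 lists of related genes, with the number tested in brackets, the list median as a black line and genes at an adjusted p under 0.05 in red. Lox (0.51), Bmp1 (-0.33) and Ndrg1 (0.49) are the red points, and the point at the far right is the scarce protease Tll1 (1.72, edgeR, adjusted p = 0.201, at most 29 counts in any library), named after its values were seen.

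Among 7439 other tested genes with a mean of at least 5 FPKM, those whose log2 CPM followed Lox most closely over the 6 libraries were Leprotl1, Slc25a33 and Chka (Pearson r of 0.999, 0.997 and 0.997, a description over 6 libraries of 2 groups). Genes picked in this way share the difference of Lox between the groups. Their higher levels with corticosterone thus follow from the choice and are no separate result. Chka, choline kinase alpha, rose and averaged 225 ± 8.15 CPM with corticosterone and 174 ± 7.71 CPM in controls (SD, n = 3 each; log2 fold change 0.37; edgeR, adjusted p = 0.0127). Slc25a33, a mitochondrial carrier of pyrimidine nucleotides, rose as well (log2 fold change 0.35; edgeR, adjusted p = 0.0413), and Leprotl1 had a log2 fold change of 0.24 (edgeR, adjusted p = 0.0518).

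Across tools and scalings the direction of Lox held. Calls of P4ha2 and Loxl3 were made only where corticosterone replicate 2 was left out, and Loxl4 was called there and with DESeq2. Without that library 3 members were higher (Lox, Loxl4 and P4ha2) and 1 was lower (Loxl3), where 10.5% of tested genes were higher and 10% lower. DESeq2 called 2 members, Lox and Loxl4, where 8.1% of genes with an adjusted p were called, 4.04% higher and 4.06% lower. limma on log2(FPKM + 1) called 1 member, Lox, where 4.26% of tested genes were called, 1.82% higher and 2.43% lower, and it tested neither Loxl1 nor Loxl2. For the members Loxl1, Plod3 and P4ha1 the sign itself changed with the library left out.

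**Figure D5:**
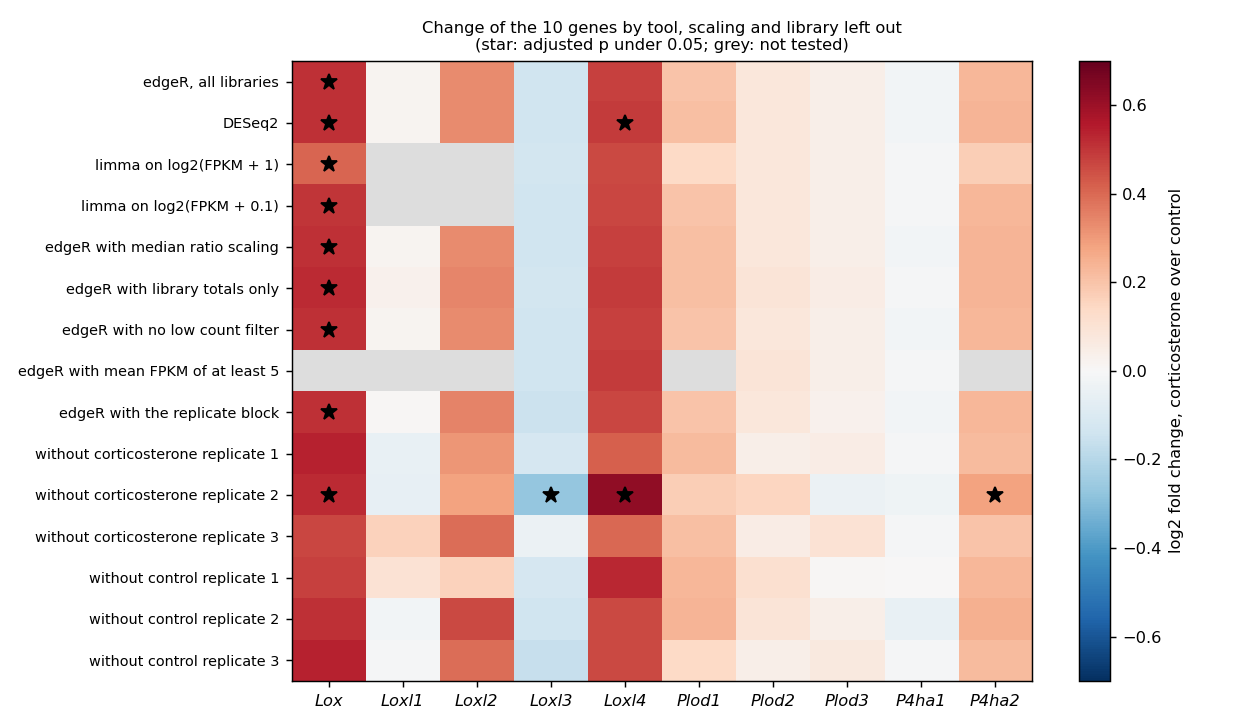
Log2 fold change of the 10 genes, corticosterone over control (colour, red higher and blue lower), for each tool, scaling, filter and library left out (rows), with a star where the adjusted p is under 0.05 and grey where the gene was not tested. Lox is red in each row where it was tested and starred in 9 of them, and without corticosterone replicate 2 Loxl4, Loxl3 and P4ha2 are starred as well.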

How the data were processed

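RNA sequencing of 6 libraries of 4T1 cells was analysed from 1 table, with groups from the treatment label and replicate numbers from the titles. Per the file headers, the authors deposited whole-number counts per gene, not normalized, and FPKM values. For the members the deposited FPKM follow the summed exon length of the gene in GENCODE M21 divided by a library total about 1.13 times that of the counts. The sources used here name no aligner, counter, strandedness or read layout. The submitters' processing notes name GRCh38, but the identifiers are mouse, and 9 of the 10 members have the coordinates of GENCODE M21 (GRCm38). Coordinates are those of the table.

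Counts were scaled to counts per M with TMM (trimmed mean of M values), filtered with filterByExpr (minimum count 10, minimum total 15) and tested with the quasi-likelihood test of edgeR 4.0.16 in R 4.3.3, by group alone. Benjamini-Hochberg adjustment covered 17283 genes, and a gene changed, rose or fell where its adjusted p was under 0.05. Alternatives were DESeq2 1.42.0, limma 3.58.1 on log2(FPKM + 1) and log2(FPKM + 0.1) with at least 1 FPKM in 3 libraries, other scalings and filters, the replicate block, each library left out, and thresholds of 0.01 and 0.1. The fits were tested on simulated data. The members and lists were chosen with earlier results of these data known. Of other lists, genes past the threshold and the 2 with the highest mean FPKM are named, and any further gene is said to be chosen after its values were seen.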

Additional observations from a re-analysis of the deposited data

How the results depend on the processing

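Over all tested genes 487 changed. The count was 1131 with DESeq2, 211 with no low count filter, 237 under the replicate block, 144 at an adjusted p under 0.01 and 889 at one under 0.1. Leaving out 1 library gave between 88 (without control replicate 2) and 3670 (without corticosterone replicate 2). It was 481 to 505 with limma, median ratio scaling or library totals only, and 433 among genes with a mean of at least 5 FPKM. Of the 10 members 1 changed, against 2 with DESeq2, 2 at an adjusted p under 0.1, 0 at one under 0.01 and 0 where a mean of 5 FPKM was asked, a filter that removes Lox. Leaving out 1 library gave 0 to 4 members, with 4 without corticosterone replicate 2 and 0 without any other single library. The replicate block gave an adjusted p of 0.0451 for Lox (edgeR) and changed no call among the members, while Bmp1 had an adjusted p of 0.0754 under it. Deviations of same-numbered libraries had Pearson r of 0.0228, 0.0435 and -0.115, and the numbers were not taken as pairs. The log2 fold change of Lox stayed between 0.41 and 0.54 and that of Loxl4 between 0.40 and 0.62. Leaving out 1 library put Loxl1 between -0.06 and 0.16 (-0.05 and -0.06 without corticosterone replicates 1 and 2, -0.02 and -0.01 without control replicates 2 and 3). The sign also changed for Plod3 (-0.04 without corticosterone replicate 2) and P4ha1 (0.00 without control replicate 1), and none of these 3 genes passed under any alternative run. The cause of these shifts was not tested. Leaving out a library also lowers the number of samples. Loxl1 and Loxl2 had the lowest counts of the members, 70 to 174 a library.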
